A study of Mus musculus with 9 samples.

Results

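Proteasome genes were described in podocytes sorted from diabetic and normal mice. Podocytes are kidney epithelial cells whose foot processes form the outer layer of the glomerular filter. Members were all genes whose symbol begins with Psm, a letter from a to g and a digit, which gave 49 of the 18193 genes on the array. OVE26 mice, a transgenic model of type 1 diabetes on the FVB strain, carried a podocyte green fluorescent protein transgene (labelled OVE-GFP), and the normal FVB mice are labelled wild type. The series' design text says that the fluorescent mice were made on FVB before the cross, whereas the sources used here do not give the promoter of the transgene or say how normal cells were marked. Glomeruli were dissociated with trypsin and fluorescent cells sorted, and RNA of 5 OVE26 and 4 FVB mice aged 3 to 4 months was amplified and read on 1 array per mouse. All levels are log2 intensities of a gene's brightest probe set, and a difference is the OVE26 mean less the FVB mean, in log2 units of which 1 is 2-fold. Levels of different genes come from different probes, so they were set against each other only as percentile ranks and summed marker intensities. Ratios of immune to constitutive subunits were taken within each array and given relative to the FVB mean ratio.

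The proteasome degrades proteins tagged with ubiquitin. Its core particle is a barrel of alpha and beta rings with the proteolytic sites on 3 beta subunits, and a regulatory particle (19S) of ATPases and non-ATPase subunits unfolds and feeds in substrates. Interferon and related signals replace the catalytic subunits Psmb5, Psmb6 and Psmb7 with Psmb8, Psmb9 and Psmb10, which make the immunoproteasome and shift cleavage towards peptides for display on class I major histocompatibility molecules. Podocytes are long-lived cells that rely on protein turnover, and immune subunits are most abundant in leukocytes.

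The members comprised 14 constitutive core subunits, the 3 immune core subunits, 2 core subunits restricted to testis (Psma8) and thymus (Psmb11), 17 subunits of the 19S particle, 4 activators or inhibitors, 7 assembly chaperones and 2 genes that share only the name pattern. The last are Psmc3ip, a recombination factor, and Psme3ip1, which binds the activator Psme3. The activator subunit Psme2 shares its probe set with another symbol and was not analysed here. The mean level was at or above the 40th percentile of genes (5.03) for 47 members. Psma8 and Psmb11 lay below it, at the 28.6th and 21.9th percentile.

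No member passed the threshold. At an adjusted p under 0.05 (limma, adjusted over all 18193 genes), 0 of 49 members were called, beside 0.605% of all genes (0.473% higher and 0.132% lower). At an unadjusted p under 0.05, 6 members (12.2%) were higher, beside 9.03% of all genes, and 1 was lower, beside 6.07%. All OVE26 arrays lay above all FVB arrays for 4 members (8.16%; 3.64% of all genes), namely the alpha subunits Psma2 and Psma5, the immune subunit Psmb10 and the chaperone Psmg4. All OVE26 arrays lay below for 1, Psmd1, beside 2.62% of all genes. The OVE26 mean was above the FVB mean for 37 members and 52.6% of all genes, and the median difference was 0.06 for members and 0.01 for all genes. Among the 10916 genes at or above the 40th percentile, 49.9% had a higher mean, 4.96% lay wholly above and 11.6% were higher at an unadjusted p under 0.05. Centring each array on its median gene moved the all-gene median by -0.10, to -0.09. After centring, 22 of 49 members were above and the median of members was -0.04. With quantile normalization 36 of 49 members were above, and the median was 0.06 for members and 0.01 for all genes.

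**Figure D1:**
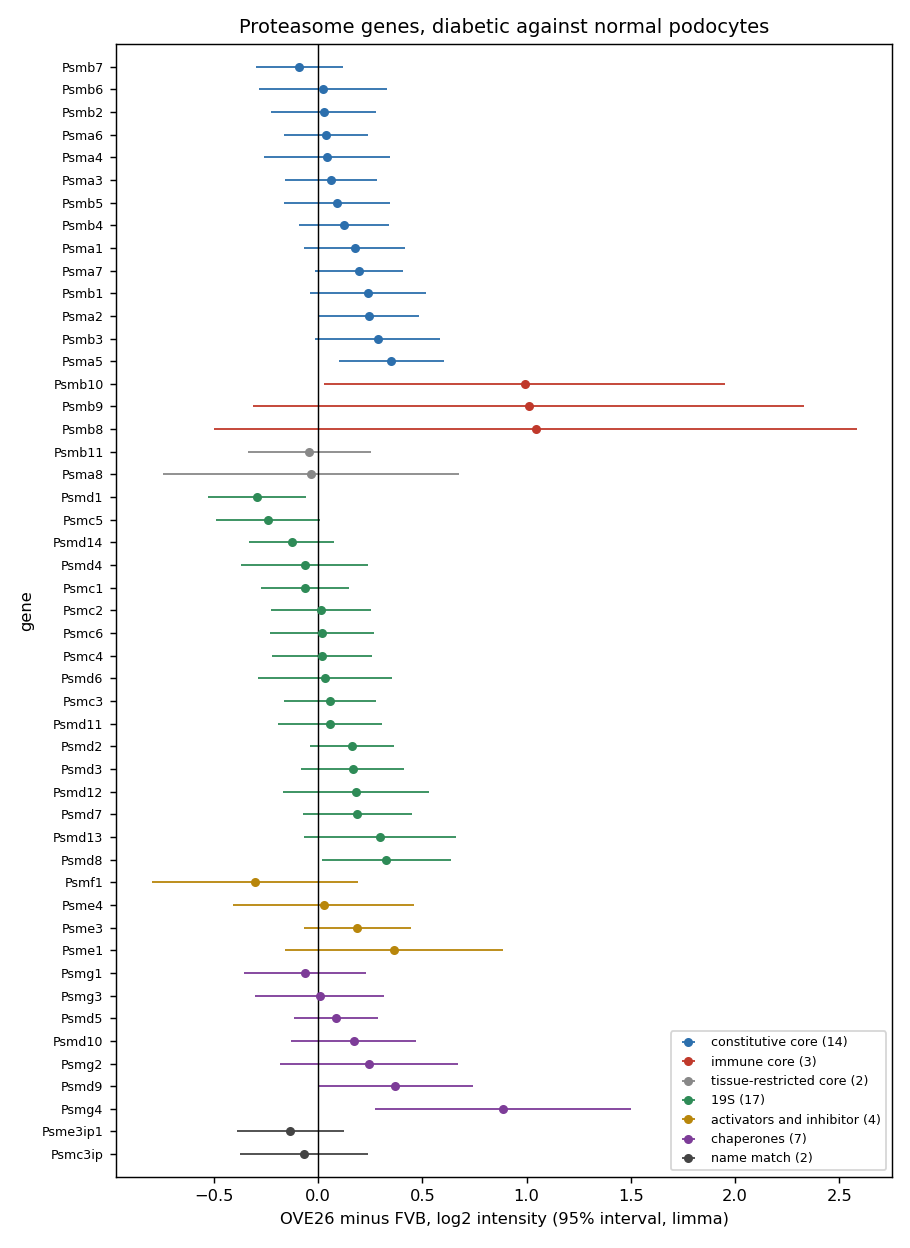
Difference between OVE26 (n = 5) and FVB (n = 4) arrays for each of the 49 genes on the log2 axis, as the limma estimate with its 95% interval, grouped by class. Intervals of the constitutive core and 19S genes are short and lie near 0, and those of Psmb8, Psmb9 and Psmb10 are centred near 1 and wide.

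Differences in the constitutive core were small. Of its 14 genes, 0 passed, 13 had a higher mean in OVE26 arrays, and differences ran from -0.09 (Psmb7) to 0.35 (Psma5), with a median of 0.11. The median was 0.01 when arrays were centred on the median gene, beside -0.09 for all genes then. It was 0.21 in a fit that included a score of distal tubule and collecting duct markers. The 95% intervals of all 14 lay between -0.30 and 0.60, so a change beyond 1.52-fold upward or to 0.813 of the normal level lies outside each of them. Of these 14 genes, 2 lay wholly above the FVB arrays and were higher at an unadjusted p under 0.05. Among the 3373 genes at least as bright as the dimmest of them, 43.3% had a higher mean, 5.63% lay wholly above and 9.93% were higher at that p. The median SD within groups was 0.13 in OVE26 and 0.10 in FVB arrays, beside 0.19 and 0.14 for those 3373 genes.

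The alpha ring forms the gate through which substrates enter. Psma5 was at 8.98, 9.18, 9.40, 9.25 and 9.28 in OVE26 arrays 1 to 5 and at 8.70, 8.87, 8.95 and 8.95 in FVB arrays 1 to 4. The lowest OVE26 array was just above the highest FVB arrays. The difference was 0.35 (SE 0.11), or 1.27-fold, and missed the threshold (limma, adjusted p = 0.181), and its other probe sets differed by 0.26 and 0.001. Psma2 was at 10.33, 10.08, 10.38, 10.42 and 10.07 in the OVE26 arrays, against 10.03, 9.94, 10.04 and 10.05 in the FVB arrays. Its groups did not overlap, but OVE26 arrays 2 and 5 lay close to the highest FVB arrays, and the difference was 0.24 (limma, adjusted p = 0.327). The other alpha subunits differed by 0.04 (Psma6) to 0.19 (Psma7).

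Among beta subunits without a proteolytic site, Psmb3 differed by 0.29, Psmb1 by 0.24, Psmb4 by 0.13 and Psmb2 by 0.03 (limma, adjusted p from 0.358 to 0.950). Psmb3 was highest in OVE26 array 2, at 10.74, whereas the other OVE26 arrays ran from 10.14 to 10.32 and FVB arrays 9.97 to 10.14.

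The constitutive catalytic subunits differed little. Psmb5, which carries the chymotrypsin-like site, was at 8.43, 8.60, 8.57, 8.55 and 8.65 in OVE26 arrays 1 to 5 and at 8.53, 8.18, 8.60 and 8.58 in FVB arrays 1 to 4. Psmb6, with the caspase-like site, was at 9.36, 9.22, 9.68, 9.49 and 9.56 in the OVE26 arrays, against 9.18, 9.38, 9.47 and 9.72 in the FVB arrays. Psmb7, with the trypsin-like site, was at 9.44, 9.54, 9.50, 9.52 and 9.28 in the OVE26 arrays, against 9.53, 9.62, 9.53 and 9.52 in the FVB arrays. The groups overlapped in each of the 3. The differences were 0.09 (95% interval -0.16 to 0.34), 0.02 (-0.28 to 0.33) and -0.09 (-0.30 to 0.12) respectively.

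**Figure D2:**
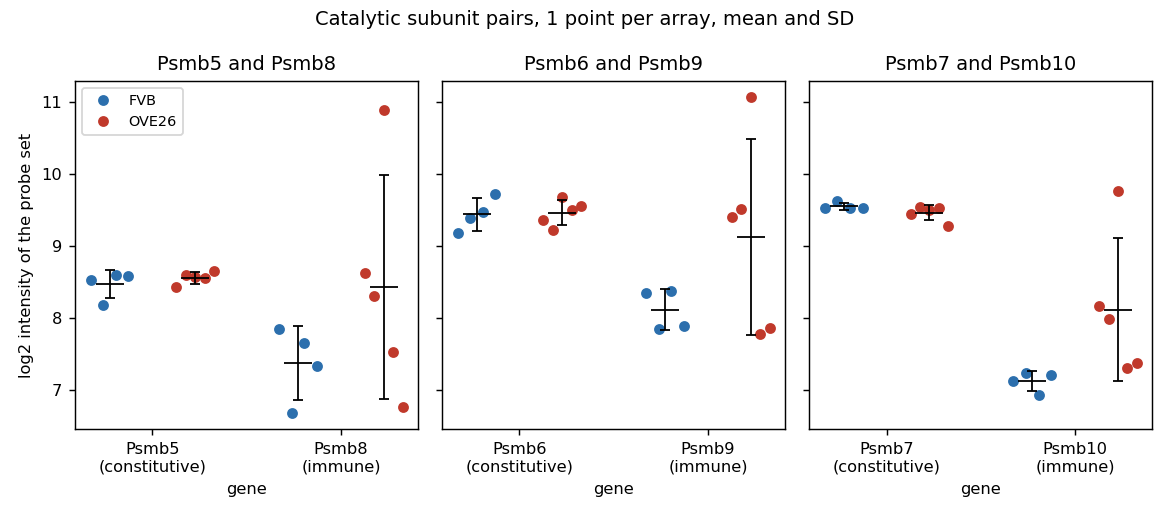
Log2 intensity of the constitutive catalytic subunits Psmb5, Psmb6 and Psmb7 and of the immune subunits that replace them, with 1 point per array and the mean and SD of each group. The constitutive subunits overlap between groups, whereas OVE26 values of Psmb8 spread from 6.77 to 10.89.

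The immune catalytic subunits had mean differences near 2-fold, with a wide spread among the diabetic mice. Psmb8 was at 8.62, 8.30, 10.89, 7.53 and 6.77 in OVE26 arrays 1 to 5 and at 7.85, 6.68, 7.66 and 7.34 in FVB arrays 1 to 4. OVE26 array 3 stood far above all others, arrays 1 and 2 were above every FVB array, and arrays 4 and 5 were within the FVB range. The difference was 1.04 (95% interval -0.50 to 2.59; limma, adjusted p = 0.531). Psmb9 was at 9.39, 9.51, 11.07, 7.78 and 7.86 in the OVE26 arrays, against 8.34, 7.85, 8.37 and 7.88 in the FVB arrays. Again OVE26 arrays 1 to 3 were above the FVB range, while array 4 was below it and array 5 inside it. The difference was 1.01 (95% interval -0.31 to 2.33; limma, adjusted p = 0.468). Psmb10 was at 8.16, 7.99, 9.76, 7.31 and 7.38 in the OVE26 arrays, against 7.13, 7.23, 6.93 and 7.21 in the FVB arrays. Here the groups did not overlap, although OVE26 arrays 4 and 5 were close to the highest FVB arrays. The difference was 0.99 (95% interval 0.03 to 1.95), 1.99-fold, and missed the threshold after adjustment (limma, adjusted p = 0.316).

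The SD of OVE26 arrays was 1.55 for Psmb8, 1.36 for Psmb9 and 0.99 for Psmb10, against 0.51, 0.28 and 0.14 in FVB arrays. Among all genes the OVE26 SD lay at the 99.7th, 99.4th and 98.1st percentile. Without OVE26 array 3 the differences were 0.43 (Psmb8), 0.52 (Psmb9) and 0.58 (Psmb10), with adjusted p from 0.266 to 0.696 (limma). All 3 stayed above 0 with any array left out, and the class median then ranged from 0.52 to 1.32.

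Each immune subunit was also set against the constitutive subunit that it replaces, as a log2 ratio within the array relative to the FVB mean ratio. The ratio of Psmb8 to Psmb5 was 1.28, 0.80, 3.41, 0.07 and -0.79 in OVE26 arrays 1 to 5 and ran from -0.41 to 0.41 in FVB arrays. That of Psmb9 to Psmb6 was 1.36, 1.62, 2.71, -0.39 and -0.37, with FVB arrays from -0.52 to 0.49. That of Psmb10 to Psmb7 was 1.14, 0.87, 2.68, 0.21 and 0.52, with FVB arrays from -0.17 to 0.11. OVE26 arrays 1, 2 and 3 thus exceeded every FVB array in all 3 ratios, and arrays 4 and 5 did so only for Psmb10. These ratios are descriptions without a test.

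**Figure D3:**
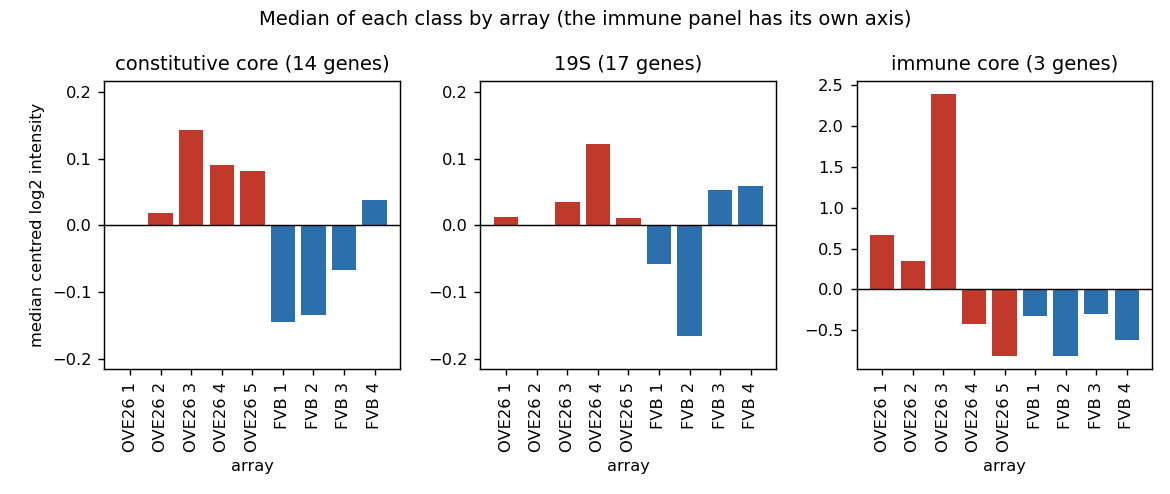
Median over the genes of a class of the log2 intensity centred on each gene's mean over the 9 arrays, for the constitutive core, the 19S particle and the immune core, with OVE26 arrays in red and FVB arrays in blue. Constitutive core medians span -0.14 to 0.14, whereas the immune core, on its own axis, reaches 2.39 in OVE26 array 3.

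Upstream sequences of the immune genes are shown with that of Psmb5, because the 3 immune genes were high in the same arrays. They are the 250 bases before the annotated start in RefSeq (GRCm38.p6), 5′ to 3′ on the gene's strand, with interferon-type motifs in capitals for the immune genes and the antioxidant response element in capitals for Psmb5. Psmb8 lies at chr17:34197945-34198194 (plus strand), Psmb9 at chr17:34187331-34187580 (minus), Psmb10 at chr8:105938393-105938642 (minus) and Psmb5 at chr14:54617996-54618245 (minus).
Psmb8: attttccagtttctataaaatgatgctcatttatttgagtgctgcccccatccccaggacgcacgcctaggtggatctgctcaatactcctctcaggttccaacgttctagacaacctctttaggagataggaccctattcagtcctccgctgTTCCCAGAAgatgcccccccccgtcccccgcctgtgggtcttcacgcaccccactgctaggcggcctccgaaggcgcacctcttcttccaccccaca
Psmb9: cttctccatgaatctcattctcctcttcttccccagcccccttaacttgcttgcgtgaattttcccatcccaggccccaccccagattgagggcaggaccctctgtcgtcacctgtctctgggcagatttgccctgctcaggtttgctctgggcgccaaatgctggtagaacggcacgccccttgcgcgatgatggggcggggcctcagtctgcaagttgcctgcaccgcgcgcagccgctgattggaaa
Psmb10: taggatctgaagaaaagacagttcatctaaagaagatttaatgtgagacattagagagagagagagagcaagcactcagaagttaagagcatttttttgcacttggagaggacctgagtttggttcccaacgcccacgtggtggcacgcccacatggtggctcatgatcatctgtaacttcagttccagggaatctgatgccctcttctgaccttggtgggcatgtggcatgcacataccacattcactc
Psmb5: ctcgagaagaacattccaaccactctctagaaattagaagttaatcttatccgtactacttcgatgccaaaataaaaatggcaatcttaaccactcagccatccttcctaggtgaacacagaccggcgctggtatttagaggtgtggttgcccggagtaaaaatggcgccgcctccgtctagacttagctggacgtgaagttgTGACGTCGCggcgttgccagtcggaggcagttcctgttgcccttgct
Psmb9 and Psmb8 are neighbours of Tap1 and Tap2 in the class II region of the mouse histocompatibility complex.

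Motifs were searched on both strands in the sequences of 41 members that matched by symbol. The interferon-gamma activated site TTCNNNGAA occurred in 2 members, Psmb8 and the chaperone Psmg1 (4.88%), and in 7.02% of all 32851 windows of this length. In Psmb8 it reads TTCCCAGAA and starts 97 bases before the annotated start, whereas the Psmb9 and Psmb10 sequences held no match. The interferon-stimulated response element (GAAA, any 2 bases, GAAA) occurred in 3 members (7.32%; 2.98% of all windows), Psmb3, Psmd4 and Psmd9, and in no window of Psmb8, Psmb9 or Psmb10. The antioxidant response element TGACNNNGC, to which the factors Nfe2l1 and Nfe2l2 bind, occurred in 5 members (12.2%; 10.2% of all windows), Psmb5, Psmb6, Psmc6, Psmd12 and Psmd9. The box CCAAT occurred in 16 members (39.0%; 33.8% of all windows). These shares were near those of all windows, except that of the interferon-stimulated element, which rests on 3 genes.

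Genes of class I peptide presentation work with the immunoproteasome. Of 13 measured genes, 0 passed in either direction (limma; 1 higher and 0 lower at an unadjusted p under 0.05), 11 had a higher mean in OVE26 arrays, beside 52.6% of all genes, and the median difference was 0.13. Irf1, an interferon-induced transcription factor, was at 9.58, 9.35, 10.93, 10.97 and 9.92 in OVE26 arrays 1 to 5 and between 8.51 and 9.13 in FVB arrays. Its groups did not overlap, and its difference was 1.40 (limma, adjusted p = 0.104). Tap1, a subunit of the peptide transporter, was at 7.95, 7.45, 9.24, 7.29 and 7.03 in OVE26 arrays and between 6.77 and 7.11 in FVB arrays, and differed by 0.81 (adjusted p = 0.366). OVE26 array 3 was highest, as for the immune subunits. Tap2, its partner, differed by 0.42 and the loading factor Tapbp by 0.29 (limma, adjusted p = 0.432 and 0.550). The class I chains themselves, named after their values were seen, differed by 0.01 (H2-K1), -0.13 (H2-D1) and 0.04 (B2m).

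Nlrc5, the transactivator of class I genes, was set beside the immune subunits after its values were seen, so its relation to them is given as a description only. Its level was 7.47, 7.41, 9.19, 5.04 and 5.00 in OVE26 arrays 1 to 5 and 6.56, 4.19, 6.83 and 6.04 in FVB arrays 1 to 4. The groups overlapped widely (difference 0.92; limma, adjusted p = 0.695). Over the 9 arrays, Pearson's r with Nlrc5 was 0.921 for Psmb8, 0.916 for Psmb9 and 0.768 for Psmb10, and Spearman's rho was 0.967, 0.933 and 0.467. Without the 2 arrays farthest from the median of Nlrc5, OVE26 3 and FVB 2, r was 0.869, 0.892 and 0.504.

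Relations with Tap1, Irf1 and a score of macrophage markers (the mean of 14 marker genes, each centred over the arrays) were composed in the same way, 12 relations in all, and are likewise descriptions. With Tap1, r was 0.941 for Psmb8, 0.908 for Psmb9 and 0.982 for Psmb10, and rho was 0.800, 0.567 and 0.800. Without OVE26 arrays 1 and 3 these r were 0.540, 0.490 and 0.833. With Irf1, r was 0.546, 0.427 and 0.605 and rho 0.40, 0.0833 and 0.667 for Psmb8, Psmb9 and Psmb10. With the macrophage score, r was 0.501, 0.418 and 0.680 and rho 0.117, -0.0833 and 0.717. Without OVE26 arrays 3 and 4, r was 0.271, 0.376 and 0.590 with Irf1 and -0.126, 0.0226 and 0.517 with the macrophage score. Psmb10 thus kept the highest r with the score of the 3 subunits. Differences between the groups are part of all these values.

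**Figure D4:**
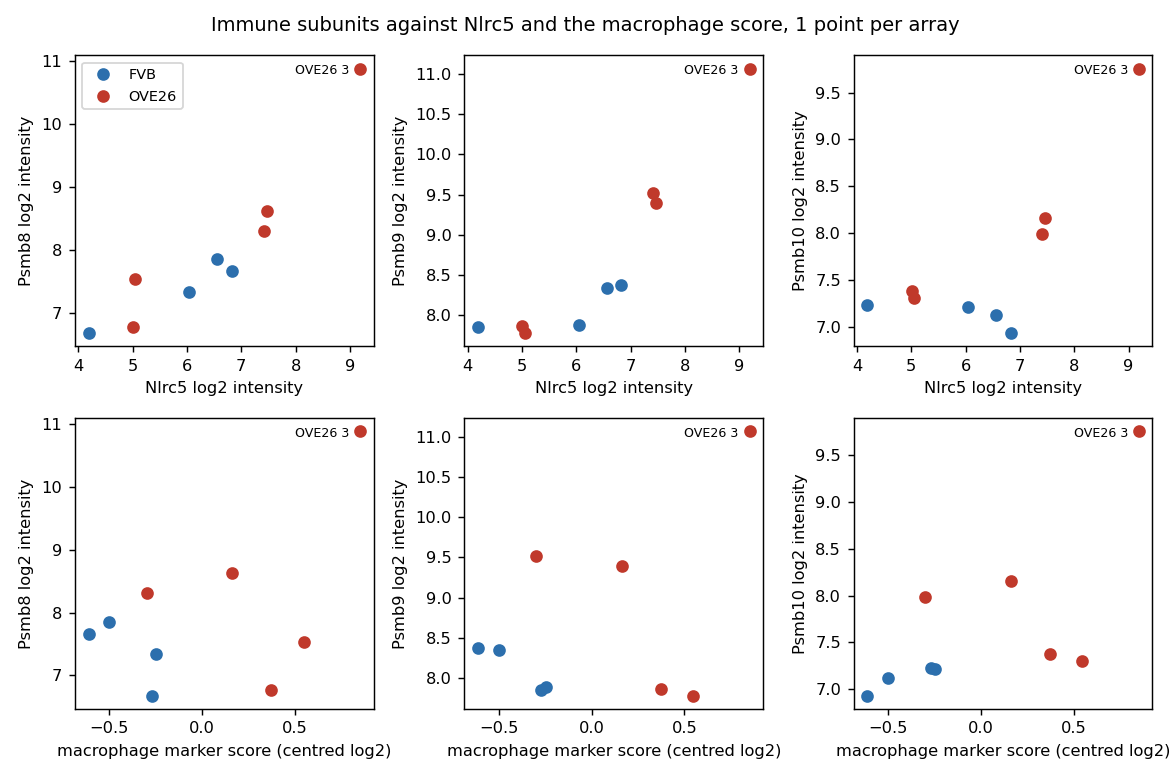
Log2 intensity of Psmb8, Psmb9 and Psmb10 in each array against the log2 intensity of Nlrc5 (upper row) and the macrophage marker score (lower row), with OVE26 arrays in red and FVB arrays in blue. Psmb8 and Psmb9 are higher where Nlrc5 is higher (r = 0.921 and 0.916 over the 9 arrays), and OVE26 array 3 is highest in every panel.

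The sorts differed in markers of other cells, which is given here because leukocytes make immune subunits. Of 14 macrophage markers 0 passed (limma). At an unadjusted p under 0.05, 7 were higher and 1 lower, beside 9.03% and 6.07% of all genes. Their median difference was 0.65, with a summed intensity of 673 to 2224 in OVE26 and 770 to 1029 in FVB arrays. The score was 0.16, -0.30, 0.85, 0.55 and 0.37 in OVE26 arrays 1 to 5 and between -0.61 and -0.25 in FVB arrays. The score was above the FVB range in all OVE26 arrays but array 2, and Psmb10 was above its FVB range in all 5. Of the 14 markers 12 had a higher mean in OVE26 arrays, beside 52.6% of all genes. Wholly above FVB lay 5, beside 3.64% of all genes, with differences of 2.61 (Ctss), 2.30 (C1qb), 1.42 (Lyz2), 1.42 (Tyrobp) and 0.61 (Adgre1). Marker levels ran from the 7.63rd percentile of genes (Itgam) to the 79.5th (Csf1r), with Adgre1 at the 13.9th. Mrc1 and Itgam, the 2 markers with a lower mean in OVE26 arrays, differed by -1.35 and -0.19. Csf1r, the brightest marker, differed by 0.03. The 8 measured T and NK cell markers lay between the 2.34th and 24.7th percentile (summed intensity 66.5 to 75.7 in OVE26 and 65.5 to 76.2 in FVB arrays). In a fit that included the macrophage score, the differences were 0.29 for Psmb8, 0.81 for Psmb9 and 0.30 for Psmb10. The SEs of these differences were 1.09, 0.97 and 0.64 (limma, adjusted p from 0.750 to 0.935). Of 15 markers of the distal tubule and collecting duct 3 were called higher (limma) and 0 lower, beside 0.473% and 0.132% of all genes. All 15 had a higher mean in OVE26 arrays, 11 were higher at an unadjusted p under 0.05 and 8 lay wholly above FVB. Their median difference was 1.38, larger than that of the macrophage markers. Their summed intensity was 5033 to 10561 in OVE26 and 1922 to 7093 in FVB arrays. With their score as a covariate the differences of Psmb8, Psmb9 and Psmb10 were 0.99, 0.49 and 0.68. The SEs of these differences were 1.34, 1.13 and 0.83 (limma, adjusted p from 0.825 to 0.916). Both scores had a higher mean in OVE26 arrays, by 0.73 (macrophage) and 1.49 (distal tubule and collecting duct). These fits therefore cannot separate other cells from the group. The part of other cells in the immune subunit values was not tested. Podocyte markers were bright in all sorts, between the 94.1st and 99.97th percentile of genes. All 7 measured had a lower mean in OVE26 arrays, from -0.11 (Podxl) to -0.50 (Nphs1), and 3 lay wholly below FVB, beside 2.62% of all genes. Of them 0 passed (limma; 0 higher and 3 lower at an unadjusted p under 0.05), and their summed intensity was 25587 to 30264 in OVE26 and 30903 to 33031 in FVB arrays. In such bulk sorts, fewer cells of a type and less RNA per cell cannot be told apart.

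The activator Psme1, which opens the core and is induced with the immune subunits, was at 9.86, 9.55, 10.74, 9.51 and 9.61 in OVE26 arrays 1 to 5 and at 9.48, 9.55, 9.53 and 9.41 in FVB arrays 1 to 4. Array 3 again stood apart, arrays 1 and 5 were slightly above the FVB range, and arrays 2 and 4 were within it. The difference was 0.36 (SE 0.23; limma, adjusted p = 0.519). It was 0.14 without OVE26 array 3 and -0.12 in the fit that included the macrophage score (adjusted p = 0.616 and 0.903). Psme3, the nuclear activator, differed by 0.19 and Psme4, which activates the core independently of ubiquitin, by 0.03 (adjusted p = 0.495 and 0.974). Psmf1, an inhibitor of the isolated core, was at 8.03, 7.04, 7.43, 7.59 and 7.08 in the OVE26 arrays, against 7.40, 7.62, 8.15 and 7.78 in the FVB arrays. The groups overlapped, with a difference of -0.30 (limma, adjusted p = 0.582), and of its 3 other probe sets 1 differed by 0.32 and the others by -0.44 and -0.41.

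Differences in the 19S particle were small as well. Of its 17 genes 0 passed, 12 had a higher mean in OVE26 arrays, and the median difference was 0.03. It was -0.07 with arrays centred on the median gene, beside -0.09 for all genes then. It was 0.18 in the fit that included the distal tubule and collecting duct score. All 95% intervals lay between -0.53 and 0.66. The 6 ATPases, which unfold substrates, differed by -0.24 to 0.06. Psmc5 was the lowest of them, at 8.75, 8.82, 8.52, 8.50 and 8.64 in the OVE26 arrays, against 8.81, 8.80, 9.08 and 8.86 in the FVB arrays. Its groups overlapped by a single OVE26 array, array 2 (limma, adjusted p = 0.346).

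Psmd1, the large scaffold of the base, was at 10.25, 10.13, 9.96, 10.25 and 10.34 in OVE26 arrays 1 to 5 and at 10.52, 10.37, 10.56 and 10.47 in FVB arrays 1 to 4. It was the only member below the FVB range in every OVE26 array. The difference was -0.29 (SE 0.11; 95% interval -0.53 to -0.06) and missed the threshold (limma, adjusted p = 0.223). Psmd2, the other scaffold, differed by 0.16 and the ubiquitin receptor Psmd4 by -0.06. The 8 lid genes differed by -0.13 for Psmd14, the deubiquitinase that releases ubiquitin chains, to 0.33 for Psmd8 (limma, adjusted p = 0.569 and 0.305).

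Assembly chaperones included the fourth of the large mean differences. Psmg4, which pairs with Psmg3 to build the alpha ring, was at 6.17, 6.13, 6.73, 6.06 and 6.06 in OVE26 arrays 1 to 5 and at 6.03, 4.50, 5.56 and 5.28 in FVB arrays 1 to 4. The groups did not overlap, although FVB array 1 was close to the lowest OVE26 arrays, and FVB array 2 was the lowest of all. The difference was 0.89 (SE 0.28), or 1.85-fold, and missed the threshold (limma, adjusted p = 0.168), and it was 0.61 without FVB array 2. A dim second probe set differed by 0.27. Its partner Psmg3 differed by 0.01, and Psmg1 and Psmg2, which act as another pair, by -0.06 and 0.24 (limma, adjusted p from 0.615 to 0.989). A second probe set of Psmg2, nearly as bright, differed by -0.52. Psmd9, Psmd10 and Psmd5, which guide assembly of the base, differed by 0.37, 0.17 and 0.09 (adjusted p from 0.331 to 0.730).

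Psma8, the alpha subunit of testis, differed by -0.04, and so did Psmb11, the thymic catalytic subunit, at levels of 4.13 and 3.59 in OVE26 arrays, near the mean 25th percentile of array values (3.31). Of the genes that share only the name pattern, Psme3ip1 was at 8.43, 8.19, 8.35, 8.10 and 8.31 in the OVE26 arrays, against 8.27, 8.29, 8.62 and 8.46 in the FVB arrays, and the groups overlapped (difference -0.13; limma, adjusted p = 0.648). Psmc3ip differed by -0.07.

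Genes that assemble, regulate and supply the proteasome were also examined. Of 19 measured genes 0 passed (limma; 1 higher and 0 lower at an unadjusted p under 0.05), 12 had a lower mean in OVE26 arrays and the median difference was -0.05. Pomp, the chaperone that matures the core, was at 10.65, 10.60, 10.84, 10.54 and 10.67 in the OVE26 arrays, against 10.71, 10.68, 10.65 and 10.80 in the FVB arrays. Nfe2l1, the transcription factor that raises subunit genes when proteasome activity falls, was at 10.47, 10.66, 10.29, 10.44 and 10.59 in the OVE26 arrays, against 10.63, 10.50, 10.76 and 10.54 in the FVB arrays. Nfe2l2, the factor of the antioxidant response, was at 9.15, 9.23, 9.39, 8.62 and 9.50 in the OVE26 arrays, against 8.99, 9.40, 9.07 and 9.08 in the FVB arrays. All 3 overlapped between the groups, with differences of -0.05, -0.12 and 0.04 (limma, adjusted p from 0.685 to 0.952), but the second probe set of Nfe2l2 differed by 2.06 (adjusted p = 0.146). Zfand2a, a stress-induced proteasome-associated protein, had the largest difference, 0.60 (SE 0.19; adjusted p = 0.175). The shuttle Ubqln4 differed by -0.21, the deglycosylase Ngly1, which activates Nfe2l1, by -0.24, and Nfe2l3, a relative of Nfe2l1, by 0.35 (adjusted p from 0.389 to 0.419).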

How the data were processed

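Gene expression was measured in sorted podocytes of 5 OVE26 and 4 FVB mice, 1 array each, and the titles name the arrays as separate mice. The authors deposited 1 intensity per probe set, linear to judge by the values, made with RMA and Partek per the submitters' processing notes (versions and settings not given in the sources used here). Log2 was taken here. Of 45101 probe sets, 64 controls were left out; the platform annotation gives 1 symbol for 34945, several for 932 and none for 9160. The identifier of 34741 matched the RefSeq gene table, and 0 symbols were updated. The brightest probe set over the 9 arrays stood for each gene, with no filter on dim genes. Members had 103 probe sets.

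Groups were compared with limma 3.58.1 under R 4.3.3, in a 2-sided moderated test with group alone in the model (prior degrees of freedom 2.94). The Benjamini-Hochberg method was applied to all 18193 genes, and an adjusted p under 0.05 was called. It was tested on simulated data. The number of arrays limits the precision: standard errors had a median of 0.12 over members and 0.16 over all genes. Array medians over all probe sets but controls ran from 5.07 to 5.15. Medians over the brightest probe set of each gene, which were used for centring, ran from 5.86 to 6.01 in OVE26 and 5.79 to 5.86 in FVB arrays. Correlations over 9 arrays are given as descriptions. Permutation p-values were computed for them but are not given, as the relations were composed after values were seen. Of the 28 genes of the assembly, regulation and delivery list 19 were measured, and of the 14 class I presentation genes 13. Markers of B and plasma, endothelial, mesangial and proximal tubule cells had median differences of -0.02, -0.34, -0.18 and 0.01, with 0 genes called in each by limma (0, 1, 1 and 0 higher and 0 lower in any at an unadjusted p under 0.05).

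Values in every array are given for the 4 largest rises and falls of members at or above the 40th percentile, the catalytic pairs, Psme1, Pomp, Nfe2l1, Nfe2l2 and, beyond this rule, Psma2 and Psma5, and up to 4 genes with the smallest p are named per related list. Members and lists were chosen with earlier results of these data known. Alternatives were a dim-gene filter, other probe sets, quantile normalization, centring, a variance trend, array weights, the replicate block, covariates and leaving out arrays. The covariates were the macrophage and distal scores and a sex score. The labels give no sex, so that score was the level of Xist less the mean of Y-linked genes.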

Additional observations from a re-analysis of the deposited data

Results flagged for a closer look

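The highest or lowest array of a group stood apart from the others for 5 of the 98 sets of arrays tested (49 members in each group), where chance gives about 1 in 20. Psme1 was at 10.74 in OVE26 array 3 and from 9.51 to 9.86 in the other OVE26 arrays. In the same array Psmg4 was at 6.73, with the others from 6.06 to 6.17. Psmb2, a core beta subunit, was at 9.92 in OVE26 array 2 and from 10.24 to 10.31 in the others. In FVB array 2, Psmb7 was at 9.62, with the others at 9.52 to 9.53, and the chaperone Psmd9 was at 6.31, with the others from 6.64 to 6.70. Causes were not tested.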

How the results depend on the processing

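In the 21 alternatives limma called 0 of the members tested in either direction, with a smallest adjusted p of 0.126 (Psmg4 with the filter on dim genes). The number called among all genes varied between these fits. It was 284 higher and 112 lower with array weights, and 8 and 0 without FVB array 3. With the macrophage covariate it was 0 and 1 of 18179, and with the distal tubule and collecting duct covariate 0 and 0 of 18178. Because these covariate fits called almost no gene, their 0 says nothing particular about members. With the arrays centred on the median gene, the median over all genes tested was -0.0866. The median difference of all proteasome genes was then -0.0389, the median difference of constitutive core subunits 0.0083 and the median difference of 19S subunits -0.0679. With the score of distal tubule and collecting duct added to the model these medians were 0.21, 0.21 and 0.18. Both moved by more than the spread between arrays, and the cause was not tested. With 1 array left out, the medians ranged from 0.06 to 0.11 (all), 0.09 to 0.14 (constitutive core), 0.01 to 0.07 (19S) and 0.52 to 1.32 (immune core), and 31 to 39 members lay above FVB. The immune median was 0.30 with the macrophage covariate. With the replicate block it was 1.32, that of all members was 0.07, and 0 members were called (limma; 8 higher and 1 lower at an unadjusted p under 0.05). No FVB mouse has the number of OVE26 mouse 5, so its array adds nothing to the group difference under the block. The differences with the block are thus those without OVE26 array 5, and the 1.32 is not a separate effect of blocking. Deviations of same-numbered mice correlated at -0.21 to 0.13 over all genes and at 0.11 to 0.29 over the 49 members. Mice of different numbers were not compared in this way, so a pairing by number is neither shown nor excluded. The main model has no block. The direction was the same under all alternatives run for 17 members, among them Psmb8, Psmb9, Psmb10, Psma5 and Psmg4, and changed under at least 1 for 32. Signal over background limits Psma8 and Psmb11.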

Other observations

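Some proteasome genes gave different values by probe set. Members with more than 1 probe set numbered 27, and of their 54 other probe sets 28 had the direction of the one used. Among the dim ones, the second probe set of Psma1 differed by -0.90 (unadjusted p = 0.003 by limma over all probe sets, adjusted p = 0.128), against 0.17 for the brightest, and the third of Psmc2 by -0.76 (adjusted p = 0.156), against 0.01. The second probe set of Psmg2 was nearly as bright as the one used, at a mean level of 6.69 against 6.93. It differed by -0.52 (adjusted p = 0.236), against 0.24. These were chosen after their values were seen. In contrast, the other probe sets of Psmb1, Psmb3, Psmb4 and Psma7 all lay in the direction of the brightest. For Psmb8 the second probe set was dim, at a mean level of 2.59, and differed by 0.38.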
